A study of Mus musculus with 16 samples.

Results

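*Lhx2* and *Pou3f1* encode 2 homeodomain transcription factors, and both transcripts were present in peritoneal macrophages (PMs) after lipopolysaccharide (LPS). They were chosen by their symbols in the deposited peak table, as 2 genes of 4943, because their reads rose with LPS in these libraries. The study had also selected *Pou3f1* on the same libraries, so its test carries no independent weight. There is 1 peak for *Lhx2* and there are 3 for *Pou3f1*, of 7069 listed in all. PMs came from wild-type (WT) mice and from Adap-/- mice, which lack the adaptor protein ADAP in every cell, and all mice were sex-matched littermates on the C57BL/6 background. The cells were washed from the peritoneal cavity 3 days after an injection of 3% thioglycolate, cultured, and left untreated (mock) or given 1 ug/ml LPS for 6 h. With 2 replicates in each of the 4 groups, and an input and an IP library from each, there were 16 libraries. MeRIP-seq enriches RNA fragments with an antibody against N6-methyladenosine (m6A) to make the IP library, and the input library is the RNA before enrichment. The input libraries held between 2121313 and 4325961 reads on peaks, and the IP libraries between 5728590 and 19030373. The sources do not say whether replicates came from separate animals or cultures, so p-values measure only the spread between these samples.

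Homeodomain proteins bind DNA through a helix-turn-helix fold. LHX2 belongs to the LIM-homeodomain class, whose LIM zinc fingers recruit cofactors such as LDB and compete with LMO proteins, and it is known for its roles in forebrain, eye and hair follicle development. POU3F1, also called OCT6, joins a POU-specific domain to a POU homeodomain, binds octamer-like DNA and is known for its role in Schwann cell myelination. LPS is sensed by TLR4, which activates NF-κB through MyD88 and type I interferon production through TRIF.

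In the GRCm39 build named in the submitters' processing notes, *Lhx2* (ENSMUSG00000000247) lies on chromosome 2 from 38240771 to 38259745. Its only peak, from 38259054 to 38259254, is annotated to the CDS, the stop codon and the 3'UTR. *Pou3f1* (ENSMUSG00000090125) lies on chromosome 4 from 124550600 to 124554448. Its first peak (124552049 to 124552374) and second peak (124552399 to 124552499) lie in the CDS, and the third (124552724 to 124552949) spans the stop codon. None of the 4 peaks is shared with another gene. Together the peaks cover 200 bases of *Lhx2* and 650 bases of *Pou3f1*, and only reads on them were counted.

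RefSeq lists 2 start windows for *Lhx2* in the older GRCm38.p6 build, whose coordinates cannot be set beside those of the peaks, and the windows are shown because the gene went from at most 1 input read in a mock library to a clear level with LPS. No window was matched for *Pou3f1*. The 250 bases before each start are printed 5′ to 3′ on the plus strand, chr2:38339031-38339280 and chr2:38351058-38351307, with capitals marking matches to the motifs searched. Which start was used in these cells was not measured.
Lhx2 window 1: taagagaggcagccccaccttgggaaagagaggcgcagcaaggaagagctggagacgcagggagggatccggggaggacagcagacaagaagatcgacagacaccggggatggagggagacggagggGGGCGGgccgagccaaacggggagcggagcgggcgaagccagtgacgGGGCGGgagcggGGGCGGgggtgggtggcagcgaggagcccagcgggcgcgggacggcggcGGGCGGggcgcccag
Lhx2 window 2: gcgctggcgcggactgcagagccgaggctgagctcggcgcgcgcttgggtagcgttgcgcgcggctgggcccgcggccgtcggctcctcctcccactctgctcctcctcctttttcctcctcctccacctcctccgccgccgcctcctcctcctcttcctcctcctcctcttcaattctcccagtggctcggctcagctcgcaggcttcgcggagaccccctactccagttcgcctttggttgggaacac
The GC content was 72.8% and 68.4%, against a median of 52.4% over 32851 windows. The GC box CCGCCC, searched like all motifs on both strands, had 4 matches in window 1 and 0 in window 2, and 32.7% of all windows held it. Neither window matched the interferon response motif GAAANNGAA (7.13% of all windows), the STAT motif TTCNNNGAA (7.02%) or the NF-κB motif GGGANTTTC (0.941%). Nor did either match the AP-1 motif TGANTCA (6.75%), the POU octamer ATGCAAAT (1.60%) or the homeodomain core TAATTA (4.84%). The interferon response and STAT motifs can overlap each other. A missing match says only that these letters are not in these windows.

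The genotype was checked first. *Fyb1*, the gene that encodes ADAP, had 349 and 377 normalized CPM (edgeR cpm, reads scaled to a common library size) in the WT LPS input libraries and 41.5 and 35.7 in those of Adap-/- PMs. Its log2 fold change was −3.22 (standard error 0.13, edgeR adjusted p = 5.63e-10). Macrophage markers were plentiful, with *Cd68*, a lysosomal glycoprotein, between 3573 and 4363 CPM in all 8 input libraries, and 9 of 11 listed macrophage genes were in the table. None of the 9 neutrophil, 9 T cell or 9 eosinophil and mast cell genes was in the table, which lists only genes with a peak and so does not show that their RNA was absent.

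Before the values of the IP libraries, 2 of them must be named as standing apart. A set of 125 peaks, chosen after seeing the data, had at least 50 CPM in LPS input and at most 2% of that in mock input. Their median level in the IP libraries of WT mock replicate 1 and Adap-/- mock replicate 2 was 85.1% and 67.0% of the mean LPS IP level. In the IP libraries of WT mock replicate 2 and Adap-/- mock replicate 1 it was 4.12% and 7.65%. Thus 2 libraries labelled mock IP carried these transcripts near the LPS IP level. On 15 other peaks that were high in mock input and low in LPS input, also chosen after seeing the data, these 2 libraries held 61.8% and 44.5% of the mock input level. The other mock IP libraries held 74.8% and 56.5% there, and the LPS IP libraries between 2.15% and 11.6%. In mock input the medians were between 0.411% and 0.831% of the LPS input level, which the choice of the peaks fixed to be low. *Lhx2* stood at 1.59% and 0% of its mean LPS IP level in those 2 libraries. The *Pou3f1* peaks, from the first to the third, stood at 14.6%, 45.0% and 9.92% in WT mock replicate 1 and at 4.61%, 0% and 7.99% in Adap-/- mock replicate 2. In WT mock replicate 2 they stood at 6.43%, 5.85% and 5.39%, and in Adap-/- mock replicate 1 at 1.79%, 3.42% and 6.83%. The comparison of genotypes after LPS takes no mean from mock libraries, but they enter its estimate of the spread, so it is also given without them.

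*Lhx2* RNA was essentially undetected in mock input and clear after LPS, and it was lower in Adap-/- than in WT PMs. Its input reads were 0 and 0 in WT mock, 0 and 1 in Adap-/- mock, 139 and 122 in WT LPS and 74 and 44 in Adap-/- LPS libraries. In normalized CPM the LPS levels were 43.2 and 44.1 in WT PMs and 20.9 and 16.04 in Adap-/- PMs. The genotypes thus did not overlap, but how many of all genes did not was not counted. In WT mock input 3 reads over the group, the limit that a count of 0 allows, correspond to 0.394 CPM. Against that floor *Lhx2* was at least 110.78-fold higher after LPS in WT PMs. In Adap-/- PMs 118 reads stood against 1, a ratio of 149 with an exact 95% interval from 26.2 to 5927. Such intervals and floors cover counting error only. Both genes passed the filter on low counts, which *Lhx2* could pass only through its LPS libraries. This rise is a description, since the genes were chosen on it, and 30.2% of the 4742 genes tested were higher with LPS in WT and 28.5% in Adap-/- PMs.

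After LPS, *Lhx2* had 43.6 ± 0.641 CPM (SD, n = 2) in WT and 18.5 ± 3.42 (SD, n = 2) in Adap-/- PMs. On the log2 scale this was −1.23 (standard error 0.23, edgeR adjusted p = 0.00224). In bulk RNA, fewer cells with the transcript and less transcript per cell cannot be told apart.

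*Pou3f1* was already measurable in mock input, and it too was lower in Adap-/- PMs. Its summed reads were 23 and 24 in WT mock, 8 and 12 in Adap-/- mock, 269 and 160 in WT LPS and 92 and 50 in Adap-/- LPS libraries. In normalized CPM these were 5.88 and 6.47, 2.0997 and 2.91, 83.6 and 57.8, and 26.0 and 18.2, in the same order. The 4 groups did not overlap, and their order from high to low was WT LPS, Adap-/- LPS, WT mock, Adap-/- mock. The choice of the genes fixed LPS to lie above mock, and the share of all genes without overlap was not counted. WT LPS replicate 1 was the highest library. From mock to LPS the level was 11.6-fold higher in WT PMs (exact 95% interval 8.59 to 16.1, from 429 against 47 reads). In Adap-/- PMs it was 8.95-fold higher (5.59 to 15.1, from 142 against 20 reads), again a description.

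**Figure D1:**
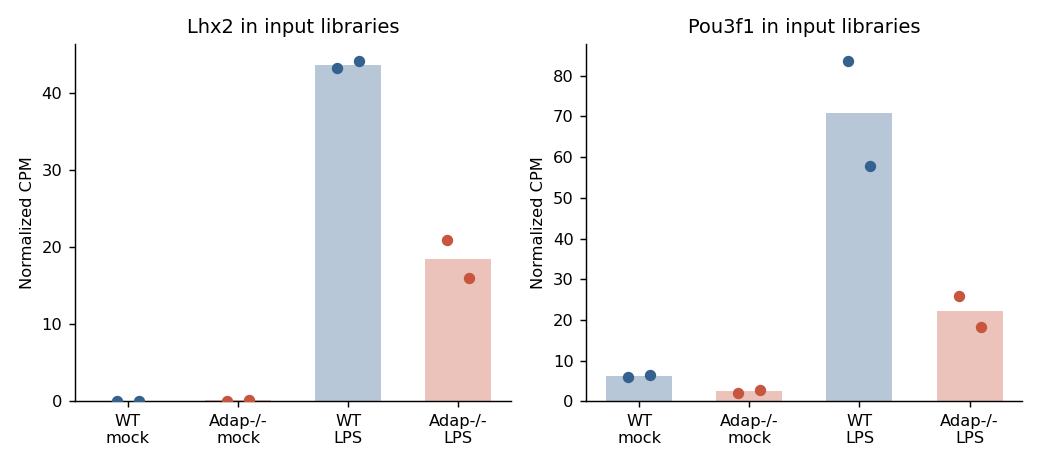
Normalized input CPM (vertical axis, from 0) of *Lhx2* and *Pou3f1* in the 4 groups, with each library as a point and the group mean as a bar. After LPS both Adap-/- points of each gene lie below both WT points, at 20.9 and 16.04 against 43.2 and 44.1 for *Lhx2*.

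Between genotypes after LPS, the *Pou3f1* difference was −1.66 on the log2 scale (standard error 0.21, edgeR adjusted p = 0.000140). Both genes were thus among the 464 of 4742 genes called lower in Adap-/- PMs after LPS, 9.78% of those tested, while 286 (6.03%) were called higher. The count of 750 calls fell to 385 when WT LPS replicate 1 was left out and to 354 when Adap-/- LPS replicate 2 was. With each input library left out in turn, *Lhx2* stayed between −1.44 and −1.06 and *Pou3f1* between −1.96 and −1.37, with adjusted p of at most 0.0316.

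In mock PMs *Pou3f1* gave a log2 fold change of −1.28 between genotypes (standard error 0.42, edgeR adjusted p = 0.0496), where 8.65% of genes were called lower. This call lay at the threshold and was kept in 7 of 14 alternatives. Among these were DESeq2 (adjusted p = 0.0400), no filter on low counts (0.0455) and the replicate number as a block (0.0323). It was lost with RLE scaling (adjusted p = 0.0520), with upper-quartile scaling (0.0545) and on the peak with the most reads alone (0.111). It was also lost without WT mock replicate 1 (0.0884) or 2 (0.177) and without Adap-/- mock replicate 1 (0.213) or 2 (0.135). Over 14 alternatives the adjusted p ran from 0.0323 to 0.213. The LPS response of *Pou3f1* did not differ detectably between genotypes, with a difference of −0.39 on the log2 scale (standard error 0.51, edgeR adjusted p = 0.822). Single libraries moved this value, to −0.09 without WT LPS replicate 1, −0.62 without WT LPS replicate 2, −0.68 without Adap-/- LPS replicate 1 and −0.17 without Adap-/- LPS replicate 2. It was −0.11 without Adap-/- mock replicate 2, and its adjusted p ran from 0.679 to 0.989 over the alternatives. This difference was called for 78 genes, 1.64% of those tested, and for 127 without WT mock replicate 1, 48 without Adap-/- mock replicate 1, 29 without Adap-/- mock replicate 2 and 40 to 46 with any 1 LPS replicate left out. For *Lhx2* neither the mock comparison nor the difference of responses was measurable, because no mock library had more than 1 read.

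Per length of peak, the 2 transcripts could be set side by side. After LPS *Lhx2* had 218 ± 3.21 CPM per kb of peak (SD, n = 2) in WT PMs and 92.3 ± 17.1 (SD, n = 2) in Adap-/- PMs. *Pou3f1* had 109 ± 28.01 (SD, n = 2) and 34.0 ± 8.40 (SD, n = 2). In each of the 4 LPS input libraries *Lhx2* was thus the more abundant on this scale, although in mock libraries it was the less abundant.

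Each peak of both genes was then examined on its own, to see whether the input difference was borne by every part measured. CPM here come from a fit of all 16 libraries and so differ in scale from those of whole genes. In the fit of input libraries alone, the *Lhx2* peak gave −1.25 on the log2 scale (standard error 0.22, edgeR adjusted p = 0.000807). The *Pou3f1* peaks gave −1.98, −1.57 and −1.37 from the first to the third (standard errors 0.29, 0.44 and 0.27, edgeR adjusted p = 0.000184, 0.0213 and 0.00208). All 4 peaks were therefore called lower, against 9.18% of 6794 peaks, but peaks of 1 transcript are not independent of each other.

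The share of the *Pou3f1* reads on each of its 3 peaks was given for input and IP. In LPS input the stop codon peak held 30.9% and 40.6% of the *Pou3f1* reads in WT and 41.3% and 46.0% in Adap-/- libraries. The exact 95% interval of the lowest share, 25.4% to 36.8%, overlapped that of the highest, 31.8% to 60.7%. In the LPS IP libraries this peak held 56.2% and 50.6% in WT PMs and 61.4% and 46.7% in Adap-/- PMs, with no order of the genotypes. In Adap-/- LPS replicate 2 the input and IP shares were alike, and in the other 3 replicates the IP share was the higher. The difference was not tested. The short second peak held the fewest reads in every LPS library, between 5.75% and 18.5%.

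On the *Lhx2* peak the IP level after LPS was 49.0 and 47.3 CPM in WT and 32.2 and 33.9 in Adap-/- PMs. On the first *Pou3f1* peak it was 66.3 and 88.8 against 46.7 and 54.8 CPM. The second had 18.5 and 15.001 against 12.4 and 6.62 CPM, and the stop codon peak 109 and 106 against 93.9 and 53.8 CPM. On all 4 peaks both Adap-/- IP libraries lay below both WT IP libraries. The share of all peaks with this order was not counted, and the peaks of *Pou3f1* are not independent of each other. The differences did not pass the test. From the IP libraries alone, the log2 fold change was −0.57 for *Lhx2* (95% interval −2.53 to 1.39) and −0.64, −0.84 and −0.57 for *Pou3f1*, with edgeR adjusted p between 0.544 and 0.822. From the 4 LPS IP libraries alone these were −0.53 for *Lhx2* (standard error 0.21, edgeR adjusted p = 0.178) and −0.60, −0.80 and −0.53 for *Pou3f1* (edgeR adjusted p = 0.158, 0.325 and 0.285). The first peak of *Pou3f1* gave −0.84 when WT LPS replicate 1 was left out and −0.40 when WT LPS replicate 2 was. The second peak of *Pou3f1* and its stop codon peak gave −1.37 and −1.03 when Adap-/- LPS replicate 1 was left out and −0.46 and −0.22 when Adap-/- LPS replicate 2 was. Over all alternatives the adjusted p of the 4 peaks ran from 0.158 to 1.00. Of 7060 peaks, 1 was called in IP, or 0.0142%, while 968 had an unadjusted p below 0.05 and DESeq2 called 136.

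**Figure D2:**
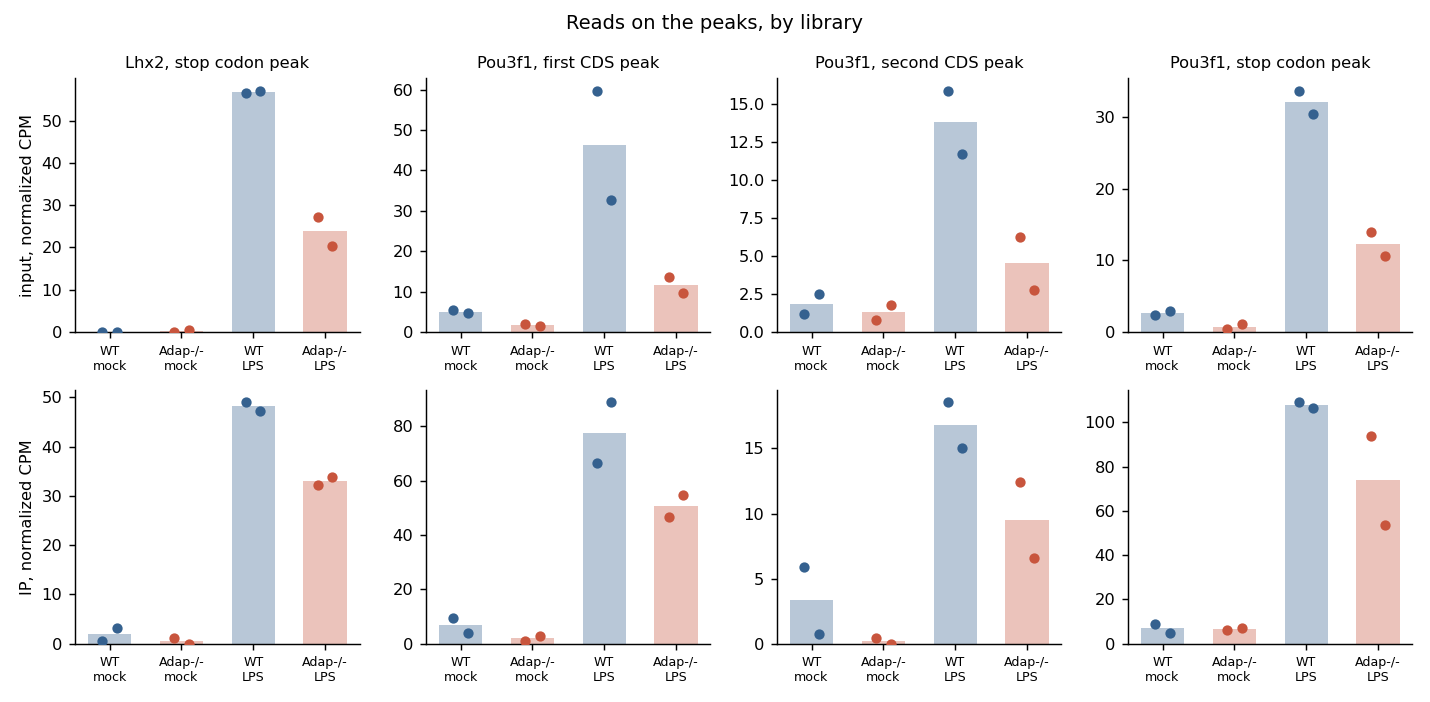
Normalized CPM (vertical axes, from 0, each panel on its own scale) on the 4 peaks in input (top row) and IP (bottom row), with each library as a point and the group mean as a bar. After LPS the Adap-/- points lie below the WT points in every panel, and on the stop codon peak of *Pou3f1* the IP points span 53.8 to 109 CPM.

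The IP-to-input ratio relates the enriched reads to the transcript level, and because libraries are scaled on the average peak it shows capture relative to other peaks. On the *Lhx2* peak it was 0.867 and 0.828 in WT LPS and 1.18 and 1.66 in Adap-/- LPS replicates. These values stood between the 39.2 and 80.4 percentiles of peaks with at least 10 input reads, lowest in WT LPS replicate 2 and highest in Adap-/- LPS replicate 2. On the stop codon peak of *Pou3f1* the ratio was 3.23 and 3.50 in WT and 6.70 and 5.04 in Adap-/- PMs, at or above the 98.3 percentile in every LPS replicate. This placed it among the most strongly captured peaks of these macrophages, above the *Lhx2* peak in 4 of 4 LPS replicates. The first *Pou3f1* peak had 1.11 and 2.71 in WT and 3.42 and 5.62 in Adap-/- PMs, and the stop codon peak exceeded it in 3 of 4 LPS replicates. The second had 1.17 and 1.28 against 1.98 and 2.38. Each of these ratios joined the IP and input libraries of the same replicate number. Differences between replicates correlated with r of only −0.10 to 0.09 between IP and input, so single ratios and counts over replicates rest on that pairing.

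The ratio was higher in both Adap-/- than in both WT replicates on all 4 peaks, but no difference passed the test. How many of all peaks had this order was not counted, and the *Pou3f1* peaks belong to 1 transcript. For *Lhx2* the log2 fold change was 0.70 (standard error 0.86, 95% interval −1.22 to 2.62, edgeR adjusted p = 0.975). For *Pou3f1* it was 1.36, 0.77 and 0.83 from the first to the third peak, with intervals from −0.02 to 2.75, from −1.92 to 3.47 and from −0.20 to 1.85 and edgeR adjusted p of 0.701, 0.990 and 0.806. Only the 8 LPS libraries gave adjusted p of 0.362 for *Lhx2* and of 0.300, 0.715 and 0.466 for *Pou3f1*. The first *Pou3f1* peak gave 0.67 when WT LPS replicate 1 was left out and 1.96 when replicate 2 was. Over all alternatives the adjusted p of the 4 peaks ran from 0.300 to 1.00. Among 7058 peaks 1 was called (0.0142%), 503 had an unadjusted p below 0.05, and DESeq2 called 29. The ratio and the input difference share the same input reads, so they are not separate observations.

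The LPS libraries were also compared on these sets of peaks. Over the 15 peaks with at least 50 CPM in mock input and at most 5% of that in LPS input, chosen after seeing the data, the WT LPS IP libraries stood at 11.6% and 6.34% of the mock input level. The Adap-/- LPS IP libraries stood at 2.15% and 2.40%, and the LPS input libraries at 4.65% and 4.52% in WT and 2.59% and 2.63% in Adap-/- PMs. On these peaks both Adap-/- libraries lay below both WT libraries in IP and in input. Mock input had the same order there, at 110.9% and 119.9% in WT and 86.0% and 83.2% in Adap-/- PMs. The 125 raised peaks gave no such order in LPS IP, with medians of 118% and 88.0% in WT and 83.0% and 103% in Adap-/- libraries, but in LPS input it was 106% and 109% in WT against 92.5% and 84.4% in Adap-/- libraries. No test of these differences was made, and their part in the ratios of *Lhx2* and *Pou3f1* was not tested.

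In mock PMs the stop codon peak of *Pou3f1* had 70 and 70 IP reads in WT and 124 and 54 in Adap-/- libraries. Its mock input had 6 and 7 reads in WT and 1 and 3 in Adap-/- PMs, and a ratio difference is given only where each genotype had a library with more than 3 input reads, which Adap-/- PMs lacked on this peak. The second peak had 46 and 11 IP reads against 9 and 0, with 3 and 6 input reads against 2 and 5. The first had 73 and 59 IP reads against 23 and 22, with 14 and 11 input reads against 5 and 4. On so few input reads the ratio differences between genotypes in mock were imprecise. They were −0.24 for the first peak (95% interval −2.20 to 1.72) and −2.93 for the second (−6.48 to 0.62) on the log2 scale, each with an edgeR adjusted p of 1.00. In this comparison 0.00% of peaks were called, 148 had an unadjusted p below 0.05, and DESeq2 called 0. WT mock replicate 1 and Adap-/- mock replicate 2, the IP libraries named above, are part of it, and their part in these values was not tested.

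Few related transcription factor genes could be tested. Of 15 POU genes 3 were in the table and 2 were tested, *Pou3f1* and *Pou2f2*. *Pou2f2* encodes OCT2, a lymphoid octamer-binding factor, and had 19.3 and 27.8 CPM in WT LPS and 30.5 and 25.2 in Adap-/- LPS input. Its log2 fold change was 0.26 after LPS (standard error 0.21, edgeR adjusted p = 0.441) and 1.20 in mock (edgeR adjusted p = 0.000787), where 8.71% of genes were called higher. The LPS value was 0.11 when Adap-/- LPS replicate 1 was left out, 0.0080 when WT LPS replicate 1 was and 0.54 when WT LPS replicate 2 was. *Lhx2* was the only 1 of 12 LIM homeobox genes in the table. Of 10 LIM-domain cofactor genes 3 were tested, and 1 was called lower after LPS, against 9.78% of all genes. This was *Lmo2*, a LIM-only protein of haematopoietic transcription complexes, both of whose peaks are shared with another gene. It had 57.5 and 44.5 CPM in WT LPS and 28.5 and 34.996 in Adap-/- LPS input (log2 fold change −0.70, standard error 0.17, edgeR adjusted p = 0.0119), and −0.74 in mock (edgeR adjusted p = 0.00751). The LPS call was lost without WT LPS replicate 1 (adjusted p = 0.174) or Adap-/- LPS replicate 1 (0.118), and over all alternatives the adjusted p ran from 0.0108 to 0.174. *Ssbp2*, which stabilises LDB complexes, and *Rlim*, a ubiquitin ligase of LIM cofactors, gave −0.12 and 0.06 and did not pass.

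The table held 22 of 180 other homeobox genes, and 16 passed the filter. After LPS 2 were higher and 0 lower in Adap-/- PMs, against 6.03% and 9.78% of all genes. Their median was 0.16 on the log2 scale against −0.01 over all genes, and the counts were the same with RLE and upper-quartile scaling. *Tshz1*, a zinc-finger homeodomain factor of the teashirt family, had 51.9 and 40.1 CPM in WT LPS and 94.8 and 105 in Adap-/- LPS input (log2 fold change 1.10, standard error 0.14, edgeR adjusted p = 0.000109). *Zhx2*, a zinc-finger and homeobox repressor, had 39.5 and 38.3 against 60.4 and 62.0 CPM (0.65, standard error 0.17, edgeR adjusted p = 0.0139). The *Zhx2* call was lost with DESeq2 (adjusted p = 0.0673), without WT LPS replicate 1 (0.0797) or 2 (0.0746) and without Adap-/- LPS replicate 1 (0.0607) or 2 (0.0846), and over all alternatives the adjusted p ran from 0.00458 to 0.0846. *Tshz1* kept its call in every alternative run and was higher in Adap-/- PMs, where *Lhx2* and *Pou3f1* were lower. The most abundant, *Zeb2*, a repressor active in myeloid cells, had 868 and 888 against 1013 and 1040 CPM and did not pass (0.23, edgeR adjusted p = 0.135), but passed from the 4 LPS input libraries alone (adjusted p = 0.0459). *Tgif1*, a TGF-β pathway corepressor, gave −0.07. The others named by level, *Adnp* and *Zhx1* (on peaks shared with another gene), *Cers5*, *Adnp2*, *Hlx* and *Pbx2*, lay between −0.43 and 0.43 and did not pass. Single libraries moved several of them, such as *Hlx* from 0.43 to 0.81 without WT LPS replicate 1 and to 0.15 without WT LPS replicate 2, and *Adnp* from 0.18 to 0.03 and 0.34 without the same libraries. With LPS in WT PMs 6 of the 16 rose and 3 fell, against 30.2% and 28.9% of all genes.

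**Figure D3:**
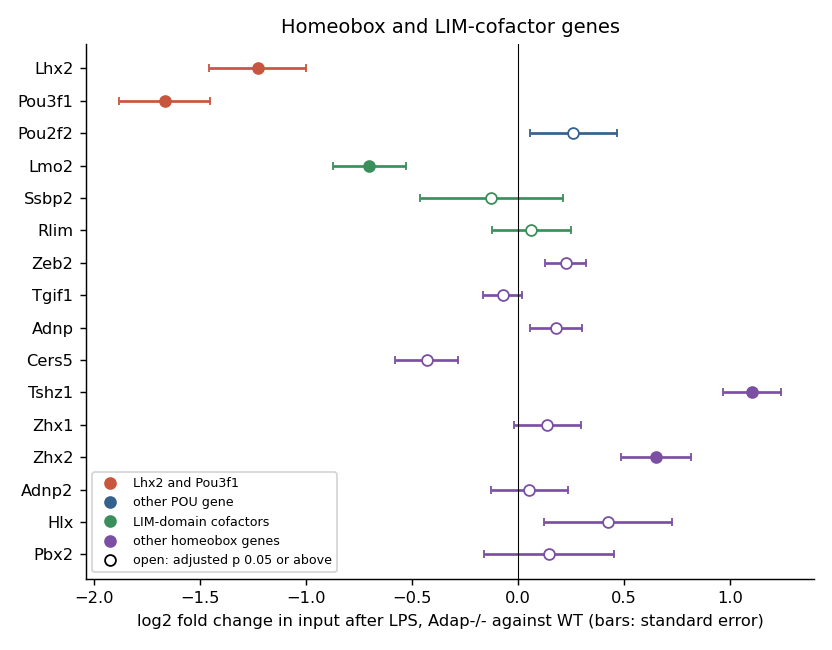
Log2 fold change in input after LPS, Adap-/- against WT (horizontal axis, points with standard errors), for *Lhx2*, *Pou3f1* and the related genes tested. *Lhx2* and *Pou3f1* lie at −1.23 and −1.66, *Tshz1* and *Zhx2* at 1.10 and 0.65, and open points had an adjusted p of 0.05 or above.

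Genes of the pathways that LPS activates were counted by list. Of 34 genes of type I interferon signaling and its targets 28 passed the filter, with 13 called lower and 0 higher in Adap-/- PMs after LPS, against 9.78% and 6.03% of all genes, and 15 not called. The median was −0.35. In mock PMs 9 were called higher and 1 lower, against 8.71% and 8.65% of all genes, with a median of 0.29. With upper-quartile scaling 10 instead of 13 were called lower after LPS. *Rsad2*, which encodes the antiviral enzyme viperin, had 53536 and 52719 CPM in WT LPS and 25973 and 26165 in Adap-/- LPS input (log2 fold change −1.03, standard error 0.14, edgeR adjusted p = 0.000191). *Cmpk2*, a mitochondrial nucleotide kinase induced by interferon, gave −1.40 (edgeR adjusted p = 1.29e-05) and *Ifit2*, an RNA-binding antiviral protein, −0.92 (edgeR adjusted p = 0.00249). *Gbp2*, an interferon-induced GTPase, gave −0.27 and did not pass. *Ifnb1* was not in the table. Where several gene identifiers carried a symbol, the identifier with the most reads was used.

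Tests were run for 18 of 28 TLR4 and NF-κB genes, of which 4 were called higher and 0 lower after LPS, against 6.03% and 9.78% of all genes, and 14 were not called. The median was 0.28. *Il1b*, the pro-inflammatory cytokine, with 1 of 2 peaks shared with another gene, had 5981 and 4127 CPM in WT LPS and 8610 and 13803 in Adap-/- LPS input (log2 fold change 1.15, standard error 0.20, edgeR adjusted p = 0.00101). *Cd14*, the LPS co-receptor, gave 0.49 (edgeR adjusted p = 0.0193). Its call was lost without WT LPS replicate 2 (adjusted p = 0.160) or Adap-/- LPS replicate 2 (0.236), and over all alternatives the adjusted p ran from 0.00396 to 0.236. *Tnf* and *Tnfaip3*, a cytokine and a feedback inhibitor of NF-κB, gave 0.40 and 0.27 and did not pass, but both passed from the 4 LPS input libraries alone (adjusted p = 0.0348 and 0.0261), without WT mock replicate 1 (0.0484 and 0.0284) or without WT mock replicate 2 (0.0451 and 0.0277). *Tnf* moved to 0.61 when WT LPS replicate 1 was left out, 0.22 when WT LPS replicate 2 was and 0.20 when Adap-/- LPS replicate 2 was (adjusted p = 0.0725, 0.514 and 0.633).

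**Figure D4:**
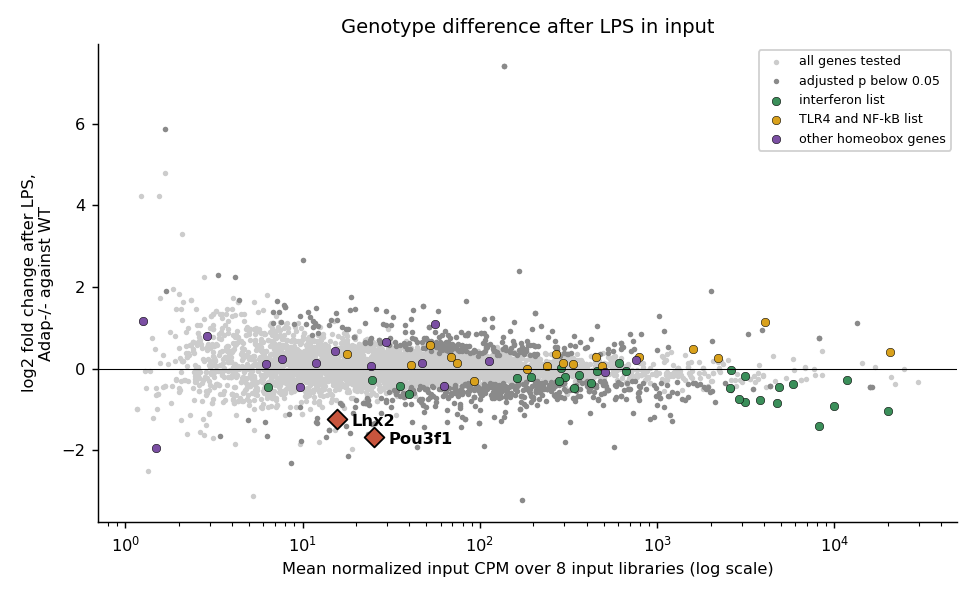
Log2 fold change after LPS, Adap-/- against WT (vertical axis), against mean normalized input CPM over 8 libraries (horizontal log axis) for the 4742 genes tested. Diamonds mark *Lhx2* at −1.23 and *Pou3f1* at −1.66, and coloured points mark the interferon, TLR4 and homeobox lists.

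The genes whose level most resembled each transcript were found by Pearson correlation of log2(CPM + 1) over the 8 input libraries, which largely reflects the gap between mock and LPS. Closest to *Lhx2* were *Ifit1* (ENSMUSG00000079339), *HRC*, *Tor3a*, *Cd69* and *Tor1aip1*, with r of 0.998, 0.998, 0.998, 0.997 and 0.997. *Cd69*, an early activation antigen of leukocytes, had 1208 and 1055 CPM in WT LPS and 543 and 522 in Adap-/- LPS input (log2 fold change −1.09, standard error 0.10). *Ifit1*, an interferon-induced antiviral gene with several identifiers in the table, had 322 and 334 against 153 and 136 CPM (−1.18, standard error 0.10). *Tor3a* and *Tor1aip1*, a torsin ATPase and a torsin regulator of the nuclear envelope, gave −0.58 and −0.50, and *HRC* gave −0.76. The genotype gap after LPS is part of the pattern these genes were chosen for, so their fold changes are a description.

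Closest to *Pou3f1* were *Tmem189*, all 3 of whose peaks are shared with another gene, *Bid*, *Sh3bp2*, *Rab22a* and *Snn*, with r between 0.988 and 0.992. *Bid*, a pro-apoptotic BCL-2 family member, had 367 and 335 CPM in WT LPS and 257 and 240 in Adap-/- LPS input (log2 fold change −0.50, standard error 0.10). *Rab22a*, an endosomal GTPase, and *Snn* gave −0.50 and −0.75, and *Tmem189* and *Sh3bp2* gave −0.28 each, again as a description. *Lhx2* and *Pou3f1* themselves correlated with r = 0.948, which ranked *Pou3f1* 635 among the genes nearest to *Lhx2* and *Lhx2* 165 among those nearest to *Pou3f1*.

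The closest genes of the table on each side of both loci were also examined, but their difference from *Lhx2* or *Pou3f1* was not tested. The nearest starts in the table lie 552 kb before *Lhx2* (*Dennd1a*, a Rab exchange factor) and 647 kb after it (*Wdr38*), with log2 fold changes of −0.12 and −0.33, neither past the test. The only *Wdr38* peak is shared with another gene, and its value was −0.0043 without Adap-/- LPS replicate 1 and −0.68 without Adap-/- LPS replicate 2. Before *Pou3f1*, at 739 kb, ENSMUSG00000085875 had 167 and 173 CPM in WT LPS and 130 and 127 in Adap-/- LPS input (−0.40, edgeR adjusted p = 0.0144), on a peak shared with another gene. This call was lost with DESeq2 (adjusted p = 0.0553), without WT LPS replicate 1 (0.0570) or 2 (0.0804) and without Adap-/- LPS replicate 1 (0.0594) or 2 (0.0962), and over all alternatives the adjusted p ran from 0.0130 to 0.0962. After it, at 43.9 kb, *Fhl3*, a four-and-a-half LIM protein, gave 0.25 and did not pass, with 0.10 when Adap-/- LPS replicate 1 was left out and 0.38 when Adap-/- LPS replicate 2 was.

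Markers of other cells of the peritoneal cavity were examined beside the genotype difference. Of 11 fibroblast and mesothelium genes 3 were tested, and their summed level after LPS was 69.3 and 98.0 CPM in WT and 146 and 126 in Adap-/- input. The most abundant over all libraries was *Pdgfra*, which did not pass (0.12) and changed sign with 1 library left out, to −0.29 when WT LPS replicate 1 was omitted and −0.43 when Adap-/- LPS replicate 1 was. *Pdgfrb*, named after its values were seen, had 29.2 and 22.8 CPM in WT LPS and 61.8 and 83.1 in Adap-/- LPS input (log2 fold change 1.46, standard error 0.22, edgeR adjusted p = 0.000369). It differed in the direction opposite to *Lhx2* and *Pou3f1*, and its part in their values was not tested. The B cell gene *Cd22*, the dendritic cell gene *Ccr7* and the neural genes *Tubb3* and *Mbp* gave 0.24, −0.08, 0.20 and −0.23 and did not pass. Single libraries moved these values, *Cd22* to 0.53 without WT LPS replicate 1 and to 0.026 without WT LPS replicate 2. *Mbp* moved to −0.067 and −0.36 without the same libraries. Of the 9 macrophage genes 1 was higher and 3 lower (2 lower with upper-quartile scaling), against 6.03% and 9.78% of all genes. The higher gene was *Cd14*, and *Mertk*, a receptor for apoptotic cells, and *Spi1*, the macrophage factor PU.1, were lower at −0.32 each, all named after their values were seen. The *Mertk* call was lost with DESeq2 (adjusted p = 0.106) and, among others, without WT LPS replicate 2, where it gave −0.21. The *Spi1* call was lost with upper-quartile scaling (adjusted p = 0.0555) and with the replicate number as a block (0.0690). It was also lost without any 1 LPS replicate and without either Adap-/- mock replicate. Over all alternatives the adjusted p ran from 0.0336 to 0.288 for *Mertk* and from 0.0181 to 0.295 for *Spi1*. Also lower was *Fcgr1*, a high-affinity IgG receptor raised by interferon, with 274 and 382 CPM in WT LPS and 146 and 122 in Adap-/- LPS input (−1.28, edgeR adjusted p = 0.000204).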

How the data were processed

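The authors deposited raw read counts on merged peaks, made on the Omicsmart platform. The submitters' processing notes name Bowtie2 2.2.8, MACS2 2.1.2, DiffBind 2.8 and GRCm39. Here a gene's expression was its input counts summed over distinct peaks. In R 4.3.3, edgeR 4.0.16 tested these counts by quasi-likelihood after TMM scaling (filterByExpr minimum 10, total 15), with Benjamini-Hochberg adjustment and a threshold of 0.05. The fit of 8 input libraries had 1 mean per group, and 201 genes failed the filter. The IP-to-input ratio was a contrast over 16 libraries. Standard errors came from the fold change and F statistic. Alternatives included DESeq2 1.42.0, other scalings, no filter, a replicate block and leaving out libraries. Members and lists were chosen with earlier results of these data known. Named genes were the members, the 5 most alike of each, POU, LIM and cofactor genes, the 10 most abundant other homeobox genes, the 4 most abundant of each pathway list, called genes of these lists (for pathway lists above 1 on the log2 scale), neighbours and *Fyb1*.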

Additional observations from a re-analysis of the deposited data

Results flagged for a closer look

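The *Lhx2* peak carried IP reads in mock PMs although the 4 mock input libraries together held 1 read on it. It had 5 reads in the IP library of WT mock replicate 1, 47 in that of WT mock replicate 2 and 22 in that of Adap-/- mock replicate 1, each above the 3 reads that a count of 0 allows, and 0 in that of Adap-/- mock replicate 2. In normalized CPM these were 0.643, 3.29, 1.10 and 0, or 1.59%, 8.10%, 2.71% and 0% of the mean LPS IP level. The mock IP libraries were deeper than the mock input libraries. On this scale 3 reads in the input library of WT mock replicate 1 are 1.16 CPM. A single such input library could thus miss levels of 0.643 or 1.10 CPM. The IP libraries with the most *Lhx2* reads were not those with the most LPS-raised transcripts, whose medians were 85.1%, 4.12%, 7.65% and 67.0% in the same order. The source of these reads was not tested.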

How the results depend on the processing

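*Lhx2* and *Pou3f1* remained lower in Adap-/- input after LPS, with an adjusted p below 0.05, in each of 15 alternatives, from −1.44 to −1.06 and from −1.96 to −1.37. The ratio and IP differences of the 4 peaks kept their direction and did not pass in any alternative run. The replicate number as a block gave −1.23 and −1.67 for *Lhx2* and *Pou3f1*, and 703 genes called after LPS. The numbers of different groups share no more than a label, with correlations of replicate differences between −0.06 and 0.06, and IP and input of a replicate gave between −0.10 (WT mock) and 0.09. With each replicate as a block 0 peaks were called in the ratio, and 1 with the WT mock numbers crossed, a setting chosen after seeing the data. DESeq2 called 29 peaks and the 8 LPS libraries alone 0, and leaving out an LPS replicate gave 0 to 14. Leaving out an input library gave 354 to 883 genes called after LPS and 29 to 127 for the difference of responses, and the cause was not tested. *Pou3f1* in mock, compared after seeing the data, was −1.28 with RLE, −1.27 with upper-quartile scaling and −1.50 on its peak with the most reads, none past the threshold, and −1.54 to −1.07 with a library left out. A group left with 1 library was assumed to vary like the others. Of 52 other genes, named or on the marker lists, whose alternatives were also added after seeing the data, 10 changed sign with a library left out. None of these 10 had passed the test. In 28 of 727 values a call was lost, for *Lmo2*, *Zhx2*, *Cd14*, *Mertk*, *Spi1* and ENSMUSG00000085875, and in 14 a call was gained, among them for *Tmem189*, *Zeb2*, *Tnf*, *Tnfaip3* and *Adgre1*. *Ssbp2* became 0.078 without WT LPS replicate 1 (range −0.28 to 0.078), *Rlim* became −0.032 without WT LPS replicate 2 and then −0.0014 without Adap-/- LPS replicate 2 (range −0.032 to 0.18), *Zhx1* became −0.048 without WT LPS replicate 1 (range −0.048 to 0.34). *Adnp2* became −0.024 without Adap-/- LPS replicate 1 (range −0.024 to 0.12), *Dennd1a* became 0.0082 without Adap-/- LPS replicate 2 (range −0.27 to 0.0082). With a library left out, marker genes ran as follows, *Lyz2* from −0.21 to 0.0013 (sign changed at 0.0013), *Pdgfra* from −0.43 to 0.65 (sign changed at −0.29 and −0.43), *Lrrn4* from −0.32 to 1.08 (sign changed at −0.32), *Ccr7* from −0.52 to 0.50 (sign changed at 0.50 and 0.16) and *Tubb3* from −0.96 to 0.96 (sign changed at −0.17 and −0.96). The difference of responses of *Lhx2* is not given under any setting, since no mock library had more than 1 read.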
